A study of Homo sapiens with 6 samples.

Results

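The ZNF genes of chromosome 19 encode zinc finger proteins, and 53 of them were among the 4546 genes that the deposited comparison lists. They were taken as every row whose symbol is ZNF followed by a digit and whose chromosome is 19. A549 is an established human lung adenocarcinoma line. RNA was sequenced from 3 libraries of A549 cells given DMSO, the solvent, at 1 part in 1000, and from 3 libraries of A549 cells given 50 nM mitoxantrone, a topoisomerase II poison, each for 48 hours. The labels name no genetic change. They leave unsaid whether the replicates came from separate cultures, and the p-values here therefore reflect only library-to-library spread, which may be technical.

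C2H2 zinc finger proteins bind DNA through repeated finger-shaped folds, each held by a zinc ion, and the order of the fingers sets the sequence that is bound. Many carry a KRAB domain, which recruits the co-repressor TRIM28 and with it histone methylation and heterochromatin proteins, and many silence transposable elements. The family grew by tandem duplication, and chromosome 19 holds its largest clusters, in which neighbouring genes are often close paralogs with similar promoters and similar coding sequence.

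Similar start regions were visible among the listed genes of the clusters nearest to the centromere. The 60 bases before the RefSeq start (GRCh38.p14) are shown 5′ to 3′ on the strand of each gene, because 4 of the 5 listed genes there share them. Capitals mark the ETS core, CCGGAAG or its complement CTTCCGG, the sequence bound by ETS transcription factors. The windows are chr19:21020597-21020656 (plus strand) for ZNF430, chr19:21836183-21836242 (minus) for ZNF43, chr19:23250395-23250454 (minus) for ZNF724P and chr19:23914826-23914885 (plus) for ZNF726.
ZNF430: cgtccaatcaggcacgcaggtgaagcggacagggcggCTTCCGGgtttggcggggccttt
ZNF43: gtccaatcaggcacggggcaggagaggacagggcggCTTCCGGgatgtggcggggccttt
ZNF724P: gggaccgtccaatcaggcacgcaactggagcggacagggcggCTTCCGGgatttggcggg
ZNF726: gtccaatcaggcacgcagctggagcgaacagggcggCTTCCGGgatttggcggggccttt
All 4 windows hold the same run of 17 bases, acagggcggCTTCCGGg, and upstream of it the same run of 15 bases, gtccaatcaggcacg.

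Genes of the cluster at the end of the long arm also carried the ETS core close to the start, in surroundings that only some of those shown have in common. The same 60-base window is shown for 5 of them, at chr19:57191440-57191499 (plus) for ZNF264, chr19:57499878-57499937 (plus) for ZNF773, chr19:57614182-57614241 (plus) for ZNF134, chr19:57727625-57727684 (minus) for ZNF671 and chr19:57769616-57769675 (plus) for ZNF586.
ZNF264: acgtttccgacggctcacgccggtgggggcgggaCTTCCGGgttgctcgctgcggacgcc
ZNF773: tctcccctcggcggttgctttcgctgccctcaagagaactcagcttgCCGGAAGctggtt
ZNF134: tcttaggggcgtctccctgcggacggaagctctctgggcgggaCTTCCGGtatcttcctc
ZNF671: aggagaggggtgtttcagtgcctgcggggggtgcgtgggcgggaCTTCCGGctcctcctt
ZNF586: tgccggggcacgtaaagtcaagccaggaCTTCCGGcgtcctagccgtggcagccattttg
The first base of the match lay at -26, -13, -17, -16 and -32 from the start, in that order. The run gggcgggaCTTCCGG is in the windows of ZNF264, ZNF134 and ZNF671 and not in those of ZNF773 and ZNF586.

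After mitoxantrone these genes were lower almost without exception. Of the 53, 51 were lower and 2 higher (edgeR quasi-likelihood test, adjusted p under 0.05), where 41.1% of all listed genes were lower and 58.9% higher. The authors had selected the listed genes on these libraries, with absolute log2 fold changes of at least 1.00 and adjusted p of at most 0.0497, and 100% of listed genes passed the test, so a member's passing says nothing further. What the selection on size did not fix was the direction. The median log2 fold change was -1.33 over the 53 genes and 1.20 over all listed genes, and the values did not change with genes at 0 reads in 1 group set at their bound. With changes under 1.00 left out by the selection, these medians and those of the other lists largely repeat the direction of most genes. The groups of libraries did not overlap in 52 of the 53, where 98.3% of all listed genes had no overlap.

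The summed level of the 53 genes per library describes the drop of these selected genes only. It was 21736, 20652 and 20694 normalized counts (raw counts divided by the library's size factor) in DMSO 1 to 3 and 7399, 8063 and 8089 in mitoxantrone 1 to 3. The ranges lie far apart, and mitoxantrone 1 is the lowest of its group. As a share of each whole library, reads of these genes made up 0.109% to 0.116% with DMSO and 0.0367% to 0.0410% with mitoxantrone. Each gene had been selected on these libraries with an absolute log2 fold change of at least 1.00, and almost all were lower. A large drop and separate ranges follow from that and are no further result. Unlisted ZNF genes of the chromosome are left out, so the size of the change over the whole family is not given. In bulk RNA a lower level in each cell and fewer cells that express a gene cannot be told apart.

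**Figure D1:**
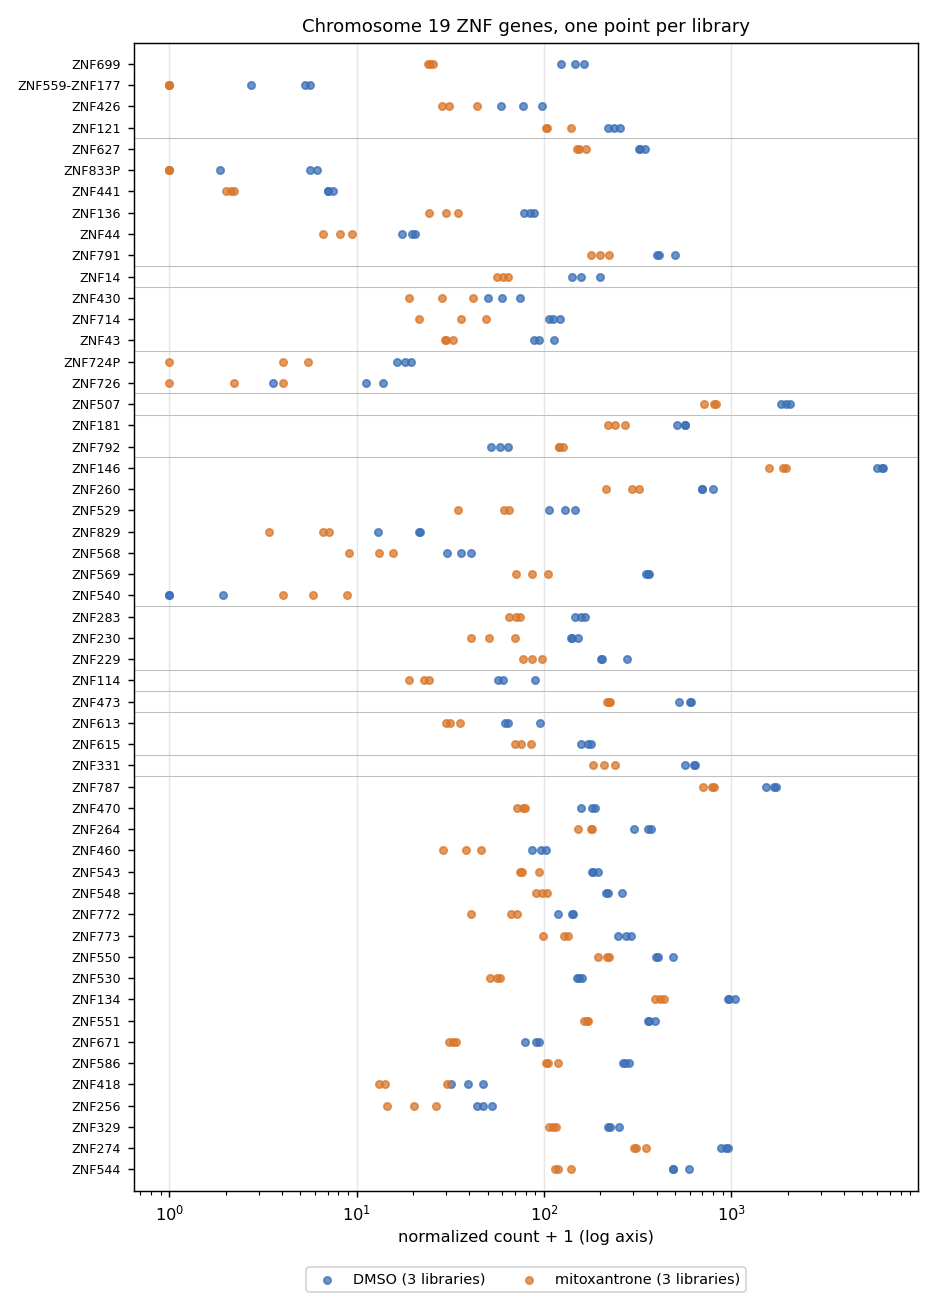
Normalized count plus 1 (log axis) of each of the 53 chromosome 19 ZNF genes in each library, genes in chromosomal order from top to bottom, with grey lines between position clusters. The mitoxantrone points lie to the left of the DMSO points in every gene except ZNF792 and ZNF540, where they lie to the right, and ZNF726, where the groups overlap.

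The direction of the chromosome 19 ZNF genes differed from that of most other listed genes of the chromosome, taken over its whole length. The listed genes that lie between the ZNF genes of a cluster are given separately below. Among the 279 other listed genes of chromosome 19, 81 were lower (29%) and 198 higher, and their log2 fold changes had a median of 1.33. Listed ZNF genes on other chromosomes leaned the same way as those on chromosome 19, with 49 of 57 lower (86.0%), 8 higher and a median of -1.24. These are descriptions of lists, and the difference between lists was not tested.

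The same genes can be counted against all annotated genes, listed or not. GENCODE 29 annotates 249 protein-coding ZNF genes on chromosome 19, of which 49 (19.7%) were listed as lower and 2 (0.8%) as higher. Of all 19951 protein-coding genes 7.6% were listed as lower and 10.3% as higher. For the other 1223 coding genes of chromosome 19 these shares were 5.4% and 13.3%, and for the 265 coding ZNF genes elsewhere 17.7% and 2.6%. A gene that is not listed may be unchanged, changed by less than the threshold, or not expressed.

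**Figure D2:**
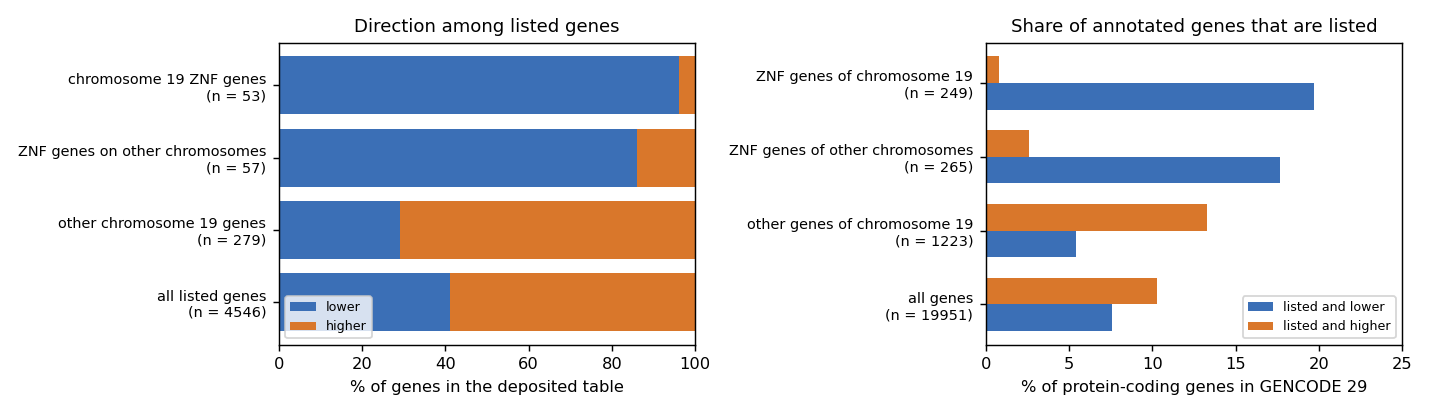
Left, percent of the listed genes of each list that were lower (blue) or higher (orange) with mitoxantrone. Right, percent of GENCODE 29 protein-coding genes that were listed as lower or higher. Blue takes up 96.2% of the chromosome 19 ZNF bar and 29% of the bar of other chromosome 19 genes.

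Most of the falls were moderate. Among the 51 lower genes, 34 had a log2 fold change between -1 and -1.5, 9 between -1.5 and -2 and 8 beyond -2, which is 15.7% of them against 29.7% of all listed lower genes. The median fall of those with reads in both groups was 2.51-fold. Just inside the authors' threshold lay 8 genes with an absolute deposited log2 fold change under 1.1. When the fall or rise had to exceed 2-fold (edgeR's glmTreat, adjusted p under 0.05), 36 of the 53 were lower and 1 higher, where 32.1% of all listed genes were lower and 48.5% higher by that test. The 1 higher gene was ZNF540, which had few reads. Among the 36 were ZNF559-ZNF177, ZNF833P, ZNF441, ZNF724P and ZNF726, also with few reads. The same libraries had served to select the genes on size, so the 2-fold test is not independent of that selection.

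ZNF146 was the most abundant member by a wide margin. It encodes a short protein made almost wholly of zinc fingers, without a KRAB domain. ZNF146 (ENSG00000167635) lies at 36705504 to 36729676 on the plus strand of chromosome 19. This and other gene positions, unless marked GRCh38.p14, are copied from the deposited table, whose build is unnamed. In GENCODE 29 it overlaps ZNF565 on the opposite strand. Its FPKM (fragments scaled to gene length and sequencing depth) was 83.0, 76.3 and 82.4 in DMSO 1 to 3 and 18.9, 23.9 and 23.02 in mitoxantrone 1 to 3. No mitoxantrone library came near a DMSO library. In normalized counts it went from 6260 ± 235 to 1806 ± 200 (SD, n = 3 libraries per group), 3.47-fold lower (log2 fold change -1.79 ± 0.07 SE; edgeR, adjusted p = 5.2e-25). It held 29.8% of the members' reads with DMSO and 23% with mitoxantrone. Without it the summed level of the other genes, selected in the same way, ranged from 14330.5 to 15311 normalized counts with DMSO and from 5819.9 to 6205 with mitoxantrone.

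The next 4 members by FPKM were well below ZNF146 and also fell. ZNF787 had an FPKM of 25.1, 24.2 and 22.3 with DMSO and 10.8, 9.76 and 10.8 with mitoxantrone (log2 fold change of counts -1.10 ± 0.08). ZNF134 had 13.7, 14.6 and 13.6 against 5.72, 5.25 and 5.56 (-1.25 ± 0.09). ZNF507, an outlying gene with no listed ZNF neighbour, had 9.77, 8.66 and 9.29 against 3.15, 3.63 and 3.71 (-1.31 ± 0.08). The order of these DMSO levels was clear of the replicate spread, each gene's lowest DMSO library lying above the highest of the next. ZNF181, the fifth, had 8.05, 7.18 and 8.06 against 2.89, 3.21 and 3.61 (-1.17 ± 0.10). ZNF260 came next with a mean of 6.53 ± 0.534 with DMSO, a spread that reaches that of ZNF264 at 6.03 ± 0.697, so the order of these 2 is not resolved.

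Below these, the family was expressed at low levels. The median FPKM over the 53 genes was 1.78 with DMSO and 0.747 with mitoxantrone, against a DMSO median of 1.19 over all listed genes. An FPKM of at least 1 was reached by 36 members with DMSO and by 21 with mitoxantrone. In 5 members the mean normalized count was under 10 in both groups, and 48 of the 53 had at least 10 reads in at least 3 libraries.

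**Figure D3:**
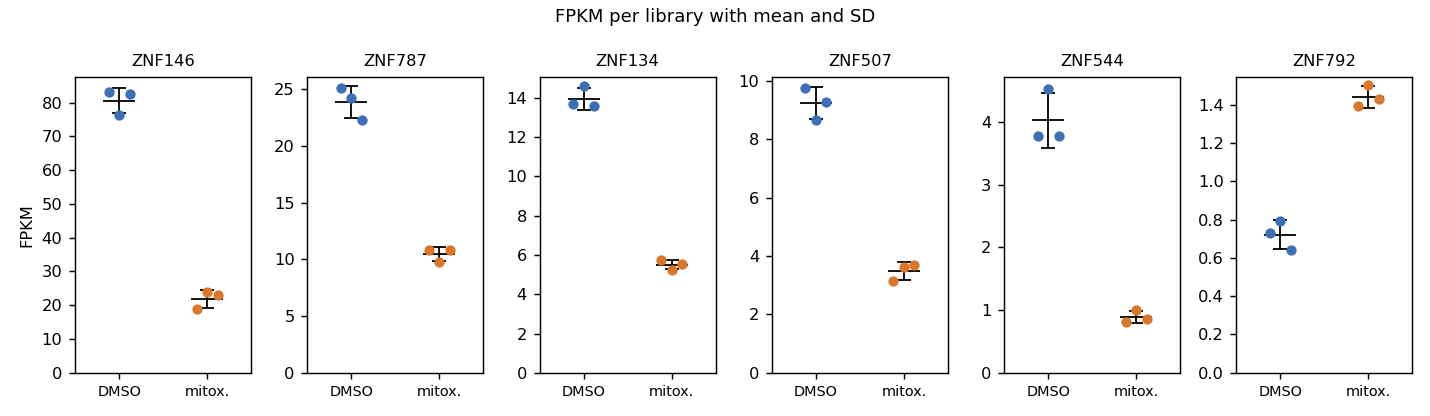
FPKM of 6 members in each library (points), with the mean (bar) and SD (whiskers) of 3 libraries per group; each panel has its own axis from 0. ZNF146, ZNF787, ZNF134, ZNF507 and ZNF544 are lower with mitoxantrone, and ZNF792 is higher.

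The largest falls among members with a mean of at least 20 normalized counts in the higher group were those of ZNF699, ZNF544 and ZNF569. ZNF699 (minus strand, 9404951 to 9420514) had 146, 162 and 122 normalized counts in DMSO 1 to 3 and 22.98, 23.7 and 24.5 in mitoxantrone 1 to 3. It was 6.05-fold lower (log2 fold change -2.59 ± 0.20; edgeR, adjusted p = 1.5e-15). ZNF544, the last member before the end of the long arm (plus strand, 58739960 to 58788815), had 490, 596 and 490 against 114, 138 and 118 normalized counts, a 4.26-fold fall (-2.09 ± 0.12; adjusted p = 7.8e-20). For ZNF569 the counts were 348, 357 and 363 against 70.2, 85.8 and 104, a 4.11-fold fall (-2.03 ± 0.13). Groups without overlap were a condition for naming these 3 genes, so their separation is no further result.

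Falls of about 3-fold came from several stretches of the chromosome. ZNF43 fell 3.27-fold (97.3 ± 13.0 to 29.7 ± 1.64 normalized counts), ZNF714 3.25-fold (112 ± 7.57 to 34.5 ± 13.7), ZNF114 3.22-fold (67.9 ± 18.2 to 21.1 ± 2.76) and ZNF568 2.99-fold (34.8 ± 5.32 to 11.6 ± 3.28). ZNF331, which is expressed from 1 parental allele in many tissues, fell 2.91-fold, from 636, 565 and 633 to 240, 209 and 183. The mouse counterpart of ZNF568 silences a placental transcript of Igf2. Groups without overlap were a condition for naming these 5 genes, so their separation is no further result. ZNF714 varied from 20.6 to 48.0 among the mitoxantrone libraries.

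ZNF274 and ZNF473 have described partners of their own. ZNF274 carries a KRAB domain and is known to bring the methyltransferase SETDB1 to the 3′ ends of zinc finger genes. It had 933, 953 and 878 normalized counts with DMSO and 347, 308 and 303 with mitoxantrone, 2.88-fold lower (log2 fold change -1.53 ± 0.09; edgeR, adjusted p = 3.0e-19). ZNF473 takes part in processing the 3′ ends of histone transcripts. It had 601, 606 and 527 against 221, 217 and 223, 2.62-fold lower (-1.39 ± 0.10).

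Only ZNF792 and ZNF540 were higher. ZNF792 (ENSG00000180884, minus strand, 35447258 to 35454953) had 57.4, 63.2 and 50.9 normalized counts in DMSO 1 to 3 and 119, 125 and 119 in mitoxantrone 1 to 3. The groups were apart, and the rise was 2.12-fold (log2 fold change 1.08 ± 0.17; edgeR, adjusted p = 1.5e-07). With glmTreat its rise could not be set above 2-fold (adjusted p = 0.136). ZNF181, the nearest listed member, was lower, as given above.

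ZNF540, annotated in the deposited table with translation repressor activity, rested on very few reads. DMSO 1 to 3 held 0, 1 and 0 reads and mitoxantrone 1 to 3 held 4, 7 and 3. The ratio of summed reads, corrected for size factors, was 17.7, with an exact 95% interval of 2.69 to 748 that covers counting error only. Its fitted log2 fold change of 3.68 ± 1.06 became 5.42 without DMSO 2, the library with the single read. The authors' deposited table gives it a log2 fold change of 1.88. In GENCODE 29 it overlaps ZNF571 and ZFP30 on the opposite strand.

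Among the lower genes, 5 with few reads had uncertain sizes. ZNF559-ZNF177, a readthrough transcript that shares its span with ZNF559 and ZNF177, and ZNF833P, a pseudogene, each had 12 reads in the DMSO libraries together and 0 in the mitoxantrone libraries. Set against a floor of 3 reads over the group, each was at least 3.16-fold lower, and the exact 95% interval of the ratio of reads, which counts the error of both groups, began at 2.199. ZNF441 had 7, 7 and 7 reads against 1, 1 and 1, a ratio of 5.54 (exact 95% interval 1.65 to 29). ZNF724P had 20, 20 and 18 reads against 0, 4 and 3, and its log2 fold change of -2.66 became -3.28 without mitoxantrone 2. ZNF726 was the one member whose groups overlapped, with 15, 11 and 3 reads against 1, 0 and 3. Its log2 fold change of -2.43 became -3.61 without mitoxantrone 3.

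Sorted by start, with a gap of over 1000000 bases between neighbouring starts opening a new cluster, the 53 genes fell into 14 position clusters. Of these, 12 held lower genes only. The largest, from ZNF787 to ZNF544 (56598732 to 58788815, 2.19 Mb), held 19 members, all lower, with a median of -1.20 and a range of -2.09 to -1.03. RefSeq places 45 protein-coding ZNF genes from the first to the last of that cluster, so 19 of 45 were listed. ZNF544 was the only one of them beyond -2.

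Within that cluster the members differed more in level than in fold. ZNF787 was highest, as given above, and ZNF418 and ZNF256 were lowest, with 31.0 to 46.3 and 42.9 to 51.7 normalized counts with DMSO. The smallest falls were those of ZNF264 and ZNF550, both -1.03 on the log2 scale. ZNF264 had 372, 302 and 358 normalized counts in DMSO 1 to 3 and 180, 150 and 176 in mitoxantrone 1 to 3. For ZNF550 the counts were 487, 403 and 394 against 192, 222 and 215, and neither gene's groups overlapped. Between these and ZNF544 lay ZNF586, at 264, 282 and 268 against 104, 118 and 102 (-1.33 ± 0.13), ZNF671, at 78.0, 92.9 and 89.7 against 30.2, 32.7 and 31.6 (-1.46 ± 0.20), and ZNF530, at 148, 153 and 160 against 50.8, 55.3 and 57.1 (-1.49 ± 0.16). ZNF773, whose ETS core lies closest to the start among the 5 windows shown for this cluster, had 247, 273 and 289 against 98.0, 133 and 128 (-1.17 ± 0.13). In ZNF418 the mitoxantrone libraries ranged from 12.1 to 29.4, close to the lowest DMSO library at 31.0.

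The other clusters held fewer members. From ZNF146 to ZNF540 there were 7 of 22 RefSeq coding ZNF genes, 6 lower and 1 higher, with a median of -1.58. From ZNF627 to ZNF791 there were 6 members, all lower, with a median of -1.44; 5 of them matched RefSeq's 24 coding ZNF genes there. From ZNF699 to ZNF121 there were 4 of 8, all lower, with a median of -1.89. From ZNF430 to ZNF43 there were 3 of 9 (median -1.67), and from ZNF283 to ZNF229 there were 3 of 19 (median -1.39), all lower. The 2 groups from ZNF724P to ZNF726 and from ZNF613 to ZNF615 held 2 members each, all lower. ZNF14, ZNF507, ZNF114, ZNF473 and ZNF331 stood alone, and the remaining pair, ZNF181 and ZNF792, moved in opposite directions.

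The most abundant members of the smaller clusters also fell, by sizes that varied beside those of their neighbours. ZNF121 had 234, 219 and 254 normalized counts with DMSO and 102, 103 and 138 with mitoxantrone (log2 fold change -1.04 ± 0.13), against -1.20 ± 0.23 for ZNF426 and -2.59 ± 0.20 for ZNF699 in the same cluster. ZNF791 had 497, 402 and 409 against 177, 198 and 221 (-1.13 ± 0.11), and ZNF136 in the same cluster had 87.4, 77.1 and 82.8 against 29.03, 33.9 and 23.5 (-1.52 ± 0.21). ZNF229 had 277, 200 and 203 against 76.2, 85.8 and 96.9 (-1.39 ± 0.15). Its neighbours ZNF230 and ZNF283, 2 of the genes with an ETS core, fell by 1.45 ± 0.17 and 1.17 ± 0.15 on the log2 scale. Differences between members of a cluster were not tested.

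Near the centromere, ZNF430 had the smallest fitted fall. It had 73.7, 58.5 and 49.1 normalized counts with DMSO and 18.1, 40.6 and 27.5 with mitoxantrone (-1.06 ± 0.25), without overlap. ZNF43, whose start region is nearly the same in the windows above, had 92.6, 87.3 and 112 against 29.03, 31.6 and 28.6 (-1.71 ± 0.20). ZNF714, which lies between them and whose promoter lacks the ETS core, fell by 1.67 ± 0.21 on the log2 scale.

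**Figure D4:**
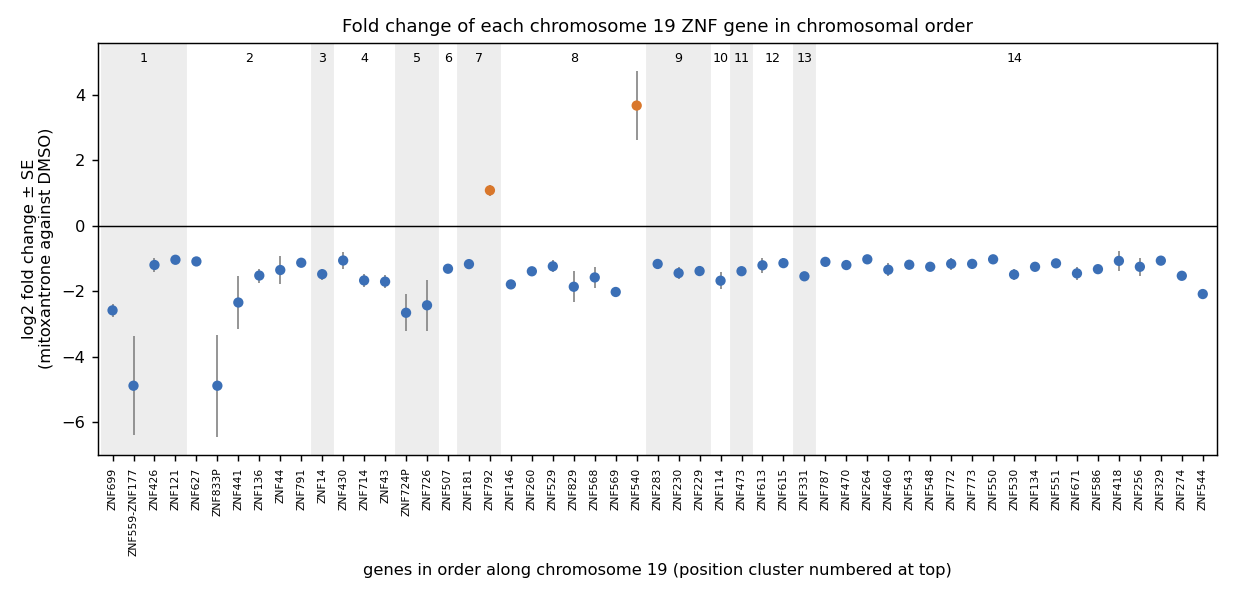
Log2 fold change (mitoxantrone against DMSO) with its SE for the 53 genes in chromosomal order, position clusters numbered at the top and shaded in turn. Each cluster holds lower genes (blue), and the 2 higher genes (orange) are ZNF792 in cluster 7 and ZNF540 in cluster 8; the points of ZNF559-ZNF177 and ZNF833P, with 0 reads in the mitoxantrone libraries, depend on the prior count of the fit.

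Other listed genes lay inside 4 of these clusters. Between ZNF181 and ZNF792 there was 1, CTC-523E23.5, which was higher (log2 fold change 5.44). In the cluster from ZNF146 to ZNF540 there were 3, the zinc finger gene ZFP82 and the non-coding genes LINC00665 and CTD-2162K18.5, all lower. In the cluster from ZNF787 to ZNF544 there were 3, of which 2 were lower, among them ZFP28, and 1 was higher. In the cluster from ZNF627 to ZNF791, ACP5 and CTD-2006C1.6 split into 1 higher and 1 lower. ACP5 and CTD-2006C1.6 overlap ZNF627 and ZNF833P, and CTC-325H20.4 overlaps ZNF699, so reads over those overlaps cannot be assigned with certainty.

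ZFP28 and ZFP82 were the only listed chromosome 19 genes with another zinc finger name (ZFP, ZSCAN, ZIM, ZIK, ZKSCAN or ZBTB with a number, MZF1 or PEG3), and both fell. ZFP28 had 286, 280 and 249 normalized counts with DMSO and 110, 122 and 85.7 with mitoxantrone, 2.57-fold lower (log2 fold change -1.36 ± 0.13; edgeR, adjusted p = 2.3e-12). ZFP82 had 74.6, 75.2 and 47.4 against 26.6, 18.1 and 26.5, 2.77-fold lower (-1.46 ± 0.25). Neither group of values overlapped.

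ZNF829 and ZNF568 are arranged head to head, the only members with another listed gene starting within 1000 bases on the opposite strand. Their starts are 38 bases apart in the deposited coordinates. ZNF829 had 20.6, 12.1 and 20.7 normalized counts with DMSO and 2.42, 5.64 and 6.12 with mitoxantrone, and ZNF568 had 35.1, 39.9 and 29.3 against 12.1, 14.7 and 8.16. Both fell, by 1.87 ± 0.47 and 1.58 ± 0.33 on the log2 scale. In RefSeq 40 bases separate the start sites, and 1 ETS core (capitals) lies between them, read on one strand by one gene and on the other by its partner. The window before the ZNF568 start is chr19:36916272-36916331 (GRCh38.p14, plus strand).
ZNF568: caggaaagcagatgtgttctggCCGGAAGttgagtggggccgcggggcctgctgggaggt

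RefSeq promoters (250 bases before to 50 after the start, GRCh38.p14) matched 49 of the 53 members. The ETS core CCGGAAG, on either strand, was in 24 of the 49 (49.0%), in 44.7% of 170 other coding ZNF genes of chromosome 19, in 33.9% of 218 coding ZNF genes elsewhere and in 14.2% of all 15843 coding promoters. By position it was in 0 of 9 member promoters of the first 3 clusters, in 4 of 5 of clusters 4 and 5 and in 15 of 19 of the last cluster. The median log2 fold changes of these groups were -1.35, -1.71 and -1.2. In between, it was in 3 of 10 of clusters 6 to 8, 2 of 3 of cluster 9 and 0 of 3 of clusters 10 to 13. The unlisted coding ZNF genes of the chromosome thus held it nearly as often as the listed ones. Members with it had a median log2 fold change of -1.29 and those without it -1.24, and 24 of 24 with it and 23 of 25 without it were lower.

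A longer element, ACTACA followed by any base and TTCC, was in 8 of 49 member promoters (16.3%) and 10% of the other coding ZNF promoters of chromosome 19. It was in 7.3% of coding ZNF promoters elsewhere and 1.3% of all coding promoters. In ZNF568, ZNF283, ZNF230 and ZNF470 it came with an ETS core at another position. The log2 fold change had a median of -1.5 in the 8 genes with it, all lower, and of -1.25 in the 41 without it, of which 39 were lower. It is shown in capitals, in 60-base windows of 4 members, because it is found in ZNF146, the most abundant. The windows are chr19:36214949-36215008 (plus) for ZNF146, chr19:36528358-36528417 (minus) for ZNF260, chr19:53520863-53520922 (plus) for ZNF331 and chr19:43827234-43827293 (plus) for ZNF283.
ZNF146: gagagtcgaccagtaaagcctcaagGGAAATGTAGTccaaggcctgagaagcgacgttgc
ZNF260: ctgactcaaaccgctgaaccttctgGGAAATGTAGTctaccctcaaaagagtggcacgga
ZNF331: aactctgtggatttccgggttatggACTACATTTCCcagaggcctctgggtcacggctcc
ZNF283: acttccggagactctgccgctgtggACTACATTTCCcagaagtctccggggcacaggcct
ZNF146 and ZNF260 carry the complement. A match describes letters only, and binding was not measured.

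The CCAAT box (CCAAT) was in 53.1% of member promoters, 53.5% of other coding ZNF promoters of the chromosome and 36.4% of all. The cell cycle homology region (TTTGAA), found in promoters of many cell cycle genes, was in 4 of 49 (8.2%) against 12.1% of all. TATAAA was in 0 of 49 and in 9.6% of all. The median GC content was 59.0% against 62.7% of all. Both strands were searched for each motif.

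**Figure D5:**
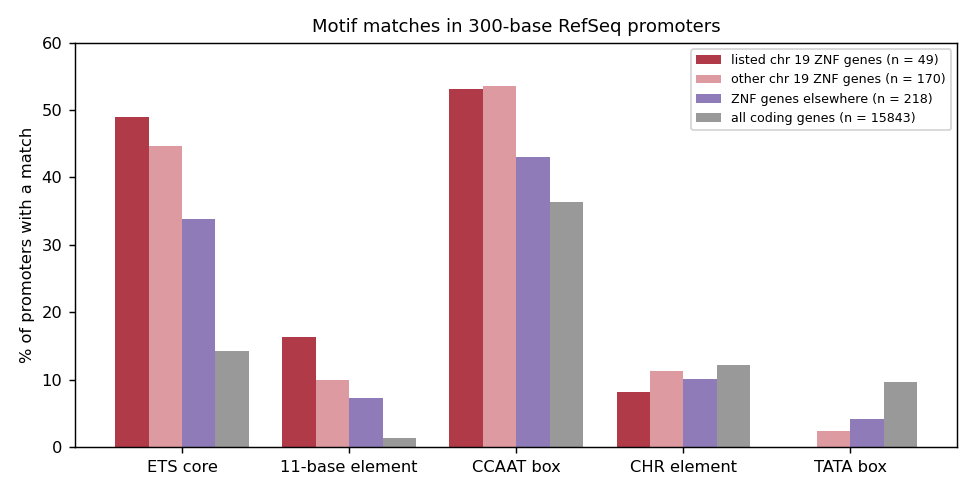
Percent of RefSeq promoters with a match to each of 5 motifs, for listed chromosome 19 ZNF genes, the other coding ZNF genes of that chromosome, coding ZNF genes elsewhere and all coding genes. The ETS core is in 49.0% of the listed genes and 14.2% of all, and the ACTACA element in 16.3% and 1.3%.

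Of the list of 32 symbols for KRAB co-repressor and heterochromatin factors, 6 were listed and each was lower (median -1.75 on the log2 scale), where 17.9% of all coding genes were listed and 41.1% of listed genes were lower. TRIM28 and SETDB1, the core of the co-repressor complex, were not listed. UHRF1, which reads half-methylated DNA after replication, had 1215, 1172 and 1377 normalized counts with DMSO and 255, 212 and 254 with mitoxantrone (5.22-fold lower). The maintenance DNA methyltransferase DNMT1 had 2509, 2728 and 2769 against 1109, 976 and 990 (2.60-fold lower). HELLS, a chromatin remodeller needed for DNA methylation, fell 4.64-fold. The histone H3 lysine 9 methyltransferases SUV39H1 and SUV39H2 fell 3.07-fold and 3.71-fold. ZNF274, described above, is the remaining one, and the list was chosen with results of these data known.

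Members varied little with their other measured features. The Spearman correlation of log2 fold change over the 53 genes was 0.28 with mean normalized count, -0.26 with genomic span and -0.12 with gene length, as descriptions over genes that share the same 6 libraries. Median log2 fold changes were -1.34 for the 32 plus-strand and -1.25 for the 21 minus-strand genes. The lowest mitoxantrone library was mitoxantrone 1 for 28 genes, mitoxantrone 2 for 11 and mitoxantrone 3 for 14. Leaving out mitoxantrone 1 kept all 51 lower calls, and over all listed genes 1864 were lower against 1869 with every library.

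Library totals recovered from the files were 20380674 to 21781220 reads with DMSO and 16681380 to 19352443 with mitoxantrone. Of 5 epithelial markers KRT8, KRT19 and CDH1 were listed, with summed levels of 59097 to 67895 normalized counts with DMSO and 139689.5 to 153714 with mitoxantrone. Of 5 leukocyte markers CD14 was listed (19.7 to 27.9 and 93.1 to 105), of 4 endothelial markers CDH5 and VWF (0.0 to 2.6 and 13.5 to 19.4), and of 5 fibroblast markers none, and the part of such transcripts in these results was not tested. Reads could also be assigned with error among near-identical zinc finger genes. By GENCODE 29, 27 of the 52 matched members overlap a gene on the opposite strand, and the labels do not say whether strand was kept.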

How the data were processed

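Total RNA of 6 A549 libraries was sequenced as paired reads of 150 bases after 13 PCR cycles, per the labels' protocols. Whether poly(A) selection or rRNA removal was used is not settled by those protocols, and no molecular identifiers are named. Per the submitters' processing notes the tools included cutadapt 1.9.1, HISAT2 2.0.1, HTSeq 0.6.1, DESeq2, Cufflinks 2.2.1 and SAMtools 0.1.19. No source used here names the genome build or the annotation. Per the file headers, the authors deposited raw read counts, FPKM values, a mean normalized count (a signal over all libraries), a log2 fold change with its standard error, a score (fold change over its error), raw and adjusted p-values, and gene length. The table holds 4546 genes that had passed the authors' threshold.

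Size factors were recovered from the counts and mean normalized counts (largest relative residual 4.8e-10), and library totals by comparing counts with FPKM where FPKM reached 20. Mitoxantrone was compared with DMSO by the quasi-likelihood test of edgeR 4.0.16 (R 4.3.3) on all 4546 genes, with no covariate and no low-count filter, Benjamini-Hochberg adjustment and a threshold of 0.05. The SE is the absolute log2 fold change divided by the square root of F. The test was also run on simulated counts in which most genes were unchanged. The listed genes had all been selected as changed, so that run does not give the test's error rate on them. Groups and replicate numbers came from the sample titles. Libraries with the same number showed no joint deviation from their group means (correlations -0.07, -0.08 and 0.03 over 2622 genes).

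The members and lists were chosen with earlier results of these data known, and the promoter motifs and windows after the promoters had been searched. Genes given in detail were mainly the 10 largest rises and falls with at least 20 normalized counts and no overlap, the 5 highest by FPKM, the most abundant in each cluster of 3 or more, and listed genes of the related lists. The 20 counts were required as a mean in the higher group only, which for falls is DMSO. Genes with few reads, ZNF473, and those beside a printed sequence were added after their values were seen. Promoters come from the RefSeq table, whose coordinates (GRCh38.p14) cannot be set against those of the deposited table. Protein features were not analysed here. Alternatives were another scaling (TMM, library totals), DESeq2 1.42.0, a test against a 2-fold change, a filter of at least 10 counts in at least 3 samples, a threshold of 0.01, a replicate block and leaving out each library.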

Additional observations from a re-analysis of the deposited data

How the results depend on the processing

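The 51 lower calls held under TMM, library totals, DESeq2, an adjusted p of 0.01, the replicate block (51 lower and 2 higher, so it changed no call) and each left-out library. With the count filter 47 of 48 members tested were lower and 1 higher, since ZNF540 was removed. Against a 2-fold change 36 were lower and 1 higher, and ZNF genes elsewhere had 5 higher in place of 8. The median gene moved by -0.26 log2 with TMM and by -0.09 with library totals. With TMM the medians became -1.59 for the members, 0.94 for all listed genes, 1.07 for other chromosome 19 genes, -1.5 for ZNF genes elsewhere and -2.01 for the co-repressor list, with no change in the split. TMM takes most genes as unchanged, but its factors came from genes all selected as changed. Its shift therefore cannot decide which scaling is right. The count filter lowered the share of higher calls over all genes from 58.9% to 52.4%. With 1 library left out the members' median ranged from -1.38 to -1.29. Of 775 values of 60 genes under alternatives, 759 kept direction and side of the threshold, and 16, all against a 2-fold change, did not pass. With gaps of 500000 and 2000000 bases there were 17 and 7 position clusters in place of 14. Low counts limit the precision of the fold change of ZNF559-ZNF177, ZNF833P, ZNF441, ZNF724P, ZNF726 and ZNF540.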
